A study of Homo sapiens with 4 samples.

Results

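The 9 SOX genes SOX2, SOX3, SOX4, SOX7, SOX9, SOX11, SOX15, SOX17 and SOX18 were followed through the first 4 days of a differentiation of human embryonic stem cells toward blood. They were taken by symbol from 19390 gene IDs listed in any library, under the Entrez gene IDs 6657 (SOX2), 6658 (SOX3), 6659 (SOX4), 83595 (SOX7), 6662 (SOX9), 6664 (SOX11), 6665 (SOX15), 64321 (SOX17) and 54345 (SOX18). SOX9 and SOX15 lie on chromosome 17 and SOX7 and SOX17 on chromosome 8, and the other 5 are each on a chromosome of their own. The cells were wild-type H1, an established human embryonic stem cell line, and RNA was sequenced from 1 library per day. Day 0 cells were undifferentiated. Day 2 cells had been kept in activin A (40 ng/ml) and BMP4 (50 ng/ml) since day 0. For day 3 and day 4 cells those factors were followed by VEGF (40 ng/ml) and bFGF (50 ng/ml), starting at day 2. All 4 groups share 1 cell line and a custom form of mTeSR1 medium, and the labels name no sorting of cells. The libraries have no replicates, so no p-value is given, and every 95% interval covers counting error and nothing else. "Rose", "fell", "higher" and "lower" are used of ratios whose counting interval leaves out 1, and "called" of differences that pass the threshold given with the counts of calls. In such bulk libraries, fewer cells that express a gene and less of its RNA per cell cannot be told apart.

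SOX proteins bind DNA through an HMG box, a domain that lies in the minor groove and bends the helix, and they act with partner factors that decide which sites are used. The family is divided into groups by sequence. SOXB1 (here SOX2 and SOX3) serves pluripotent and neural progenitor cells, and SOX2 binds together with POU5F1 at many genes of the pluripotent state. SOXC (SOX4 and SOX11) is broadly active in progenitors and in neuronal and mesenchymal development. SOXE (SOX9) directs cartilage formation, testis development and several progenitor pools. SOXF (SOX7, SOX17 and SOX18) acts in endoderm and in the forming vessels, where SOX17 also takes part in the emergence of blood cells from endothelium. SOXG has SOX15 as its single member.

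The promoters of both SOXB1 genes, which fell together, and of SOX4, which remained high, are shown to set the genes side by side. They are the 3 of 9 members matched to a promoter that is printed, as the 250 bases before the start in the RefSeq table of GRCh38.p14. SOX2 is chr3:181711675-181711924 on the plus strand, SOX3 is chrX:140505070-140505319 on the minus strand and SOX4 is chr6:21593501-21593750 on the plus strand. Each is written 5′ to 3′ in the direction of its gene, and capitals mark exact matches to a SOX motif, a CCAAT box or a TATA box on either strand.
SOX2: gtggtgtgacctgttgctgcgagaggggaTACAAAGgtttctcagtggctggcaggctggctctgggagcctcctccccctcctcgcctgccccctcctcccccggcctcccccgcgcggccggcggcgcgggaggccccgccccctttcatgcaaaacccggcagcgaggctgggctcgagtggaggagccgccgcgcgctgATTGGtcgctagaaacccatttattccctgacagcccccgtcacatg
SOX3: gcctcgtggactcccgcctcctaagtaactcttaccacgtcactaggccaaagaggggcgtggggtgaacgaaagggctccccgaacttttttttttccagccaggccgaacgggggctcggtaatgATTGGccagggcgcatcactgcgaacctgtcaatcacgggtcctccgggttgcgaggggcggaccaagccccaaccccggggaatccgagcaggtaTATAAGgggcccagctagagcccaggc
SOX4: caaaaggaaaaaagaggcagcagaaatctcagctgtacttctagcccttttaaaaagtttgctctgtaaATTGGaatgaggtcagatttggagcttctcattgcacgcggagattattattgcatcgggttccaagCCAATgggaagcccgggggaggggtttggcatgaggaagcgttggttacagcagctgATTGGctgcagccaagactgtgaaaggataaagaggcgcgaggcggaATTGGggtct
The SOX motif was NNCAANG, where each N stands for A or T and for no other letter. It occurred in the SOX2 window alone of the 3, as TACAAAG at bases 30 to 36 of the window, and 17.9% of 35116 windows of this length hold such a match. The CCAAT box (CCAAT, or ATTGG on the other strand) occurred in the windows of SOX2, SOX3 and SOX4, against 32.0% of all windows. SOX2 and SOX3 had 1 match each and SOX4 had 4. A TATA box (TATAAA or TATAAG) was found in the SOX3 window, as TATAAG at bases 224 to 229, against 14.2% of all windows. The octamer ATGCAAAT, the site of POU factors, was in none of the 3 windows and in 1.63% of all windows. A GC box (GGGCGG), left in lower case, was in the SOX2 and SOX3 windows and in 42.6% of all windows. No matches overlapped one another. The SOX2 and SOX3 windows were 68.8% and 61.6% G or C with 20 and 17 CG steps, and the SOX4 window was 48.8% with 8. These matches describe letters and not binding.

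The libraries held 5.04 to 5.49 M expected counts over 17383 to 17664 listed genes, and levels are given as CPM, the count divided by the scaled library total, in which a single read came to 0.182 to 0.196. The labelled cell state was checked against its markers. POU5F1 and NANOG were at 940 and 195 CPM at day 0. The streak genes TBXT and MIXL1 were at 36.5 and 57.5 CPM at day 2. The endothelial genes CDH5 and PECAM1 were at 83.4 and 59.6 CPM at day 4. The blood markers PTPRC and GATA1 were at 0.727 and 1.82 CPM at day 4, so a marker of mature blood was close to its floor. They differed in direction. PTPRC stood at 5.43 CPM in the undifferentiated cells of day 0, and GATA1 had 0 counts at days 0, 2 and 3 and 10 at day 4. The floor, the level of 3 counts, was 0.545 to 0.588 CPM.

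SOXB1 genes were the members that fell furthest. SOX2 had 286, 0.785, 0.773 and 1.27 CPM at days 0, 2, 3 and 4, from 1473, 4, 4 and 7 counts. Its day 0 library thus stood far above the other 3, whose intervals overlap one another between 0.211 and 2.62 CPM. SOX2 was 364-fold lower at day 2 than at day 0 (95% counting interval 142 to 1338) and 225-fold lower at day 4 than at day 0 (109 to 559). On the log2(CPM + 1) scale this was the largest fall of the 15379 genes compared between day 2 and day 0, and the largest of 15652 between day 4 and day 0. With a pseudocount of 0.1 in place of 1, SOX2 was in place 3 and place 5 of these orders, and at day 4 it was in place 2 with a pseudocount of 5 and place 3 on FPKM. SOX3, a close relative that can replace SOX2 in part in mouse stem cells, stood below SOX2 at day 0, where SOX2 was at 27.6 times SOX3 per length (20.4 to 38.1). SOX3 had 8.53, 0.588, 0.193 and 0 CPM, from 44, 3, 1 and 0 counts. SOX3 was 14.5-fold lower at day 2 than at day 0 (4.65 to 73.0). With the floor in place of its 0 counts at day 4, SOX3 was 15.6-fold lower at day 4 than at day 0. A fold set against the floor takes the count of the other library as it stands, without its counting error. The day 4 to day 2 ratio of SOX2, over the VEGF and bFGF days, was 1.62 (0.412 to 7.55), which includes 1.

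SOX2 lies inside the noncoding gene SOX2-OT, and whether reads were counted by strand is not stated, so reads of the overlapping part cannot be told apart. SOX2-OT itself had expected counts of 13.0, 3.01 and 0.57 at days 0, 2 and 3 and 0 at day 4. Its level at day 0, 2.52 CPM, was small beside that of SOX2. SOX2, SOX3, SOX4 and SOX11 have a single exon in GENCODE, so reads of unspliced RNA or of DNA cannot be told from those of their mRNA.

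SOXF genes were low or at 0 at day 0 and higher later, and SOX17 and SOX7 differed in the day of their largest step. SOX17, a regulator of endoderm and of haemogenic endothelium, had 0.194, 90.4, 89.1 and 55.3 CPM at days 0, 2, 3 and 4, from 1, 461, 461 and 304 counts. Day 0 stood apart at 1 count, days 2 and 3 lay together, and day 4 was between them. SOX17 was 466-fold higher at day 2 than at day 0 (83.3 to 18458), an interval made wide by the single count at day 0. The day 3 to day 2 ratio was 0.985 (0.864 to 1.12), and at day 4 SOX17 was 1.61-fold lower than at day 3 (1.39 to 1.87), beyond counting error. SOX7, which acts early in the formation of endothelium and blood, kept rising. It had 2.33, 5.69, 39.0 and 60.7 CPM, and the intervals of days 2, 3 and 4 lay apart from one another, while those of days 0 and 2 overlapped at their edges. SOX7 was 2.44-fold higher at day 2 than at day 0 (1.21 to 5.26), 6.86-fold higher at day 3 than at day 2 (4.63 to 10.5) and 1.56-fold higher at day 4 than at day 3 (1.30 to 1.86). From day 0 to day 4 the fold was 26.1 (14.7 to 51.0). SOX18, a regulator of arterial and lymphatic vessels, was the lowest of the 3. It had 0, 1.96, 3.09 and 3.82 CPM, from 0, 10, 16 and 21 counts. With the floor in place of its 0 counts at day 0, SOX18 was 3.37-fold higher at day 2 and 6.56-fold higher at day 4. These folds leave out counting error. Its ratios between days 2, 3 and 4 all had intervals that include 1.

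**Figure D1:**
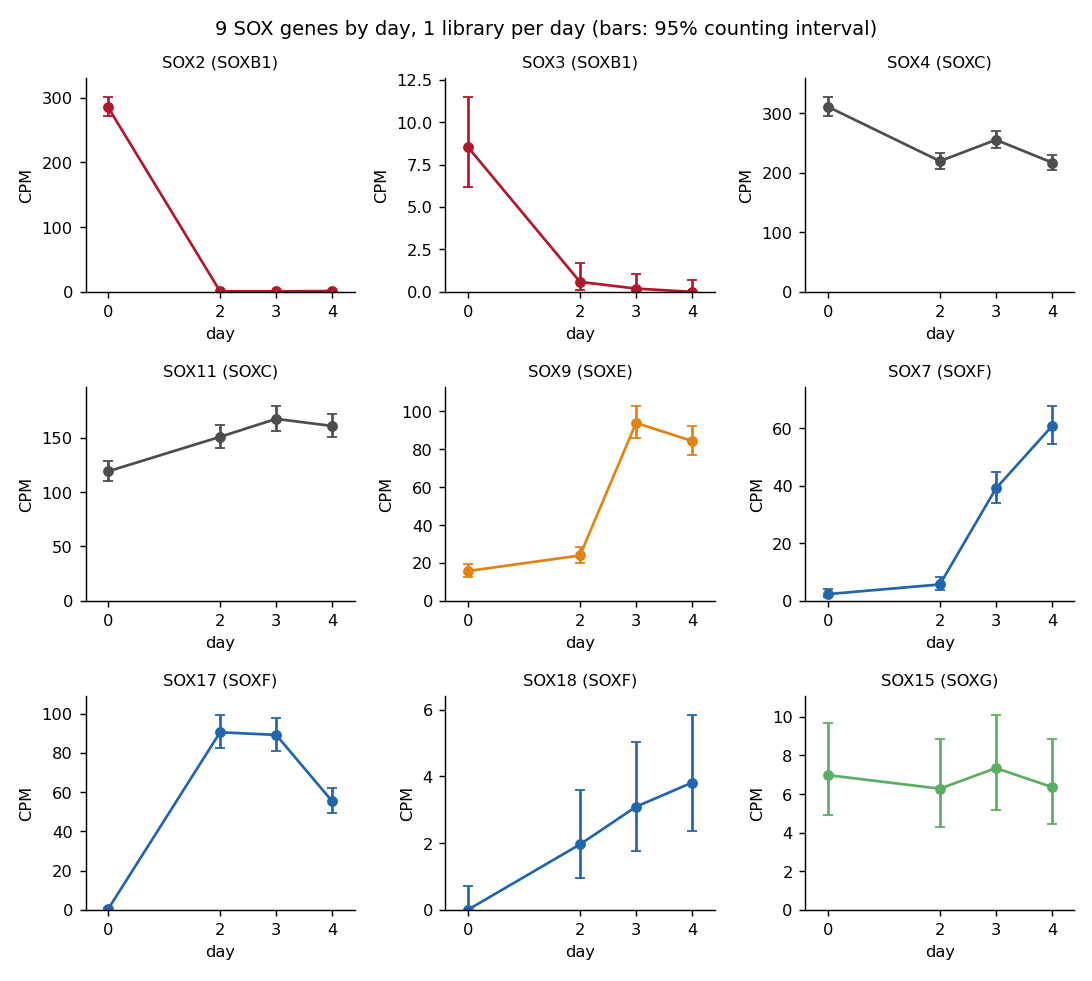
Level of each of the 9 SOX genes in CPM (vertical axes from 0, a separate scale per gene) by day (horizontal axes), with 1 library per day and bars for the 95% counting interval. SOX2 and SOX3 are high at day 0 and near 0 later, SOX17 stands at about 90.4 CPM by day 2, SOX7 climbs to 60.7 CPM at day 4, and SOX15 lies between 6.28 and 7.34 CPM throughout.

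The balance between SOX17 and SOX7 moved with time. Per transcript length, SOX17 stood at 21.8 times SOX7 at day 2 (15.0 to 32.9), 3.13 times at day 3 (2.64 to 3.71) and 1.25 times at day 4 (1.06 to 1.46). At day 0 the ratio was 0.114 (0.00267 to 0.772), with 1 count of SOX17 and 12 of SOX7. SOX17 stood at 33.7 times SOX18 at day 2 (18.2 to 70.8) and 10.6 times at day 4 (6.80 to 17.3). SOX7 was the one member whose deposited counts were not whole in any library, at 12.2, 28.9, 202 and 334. Expected counts can be fractional for a gene where reads are shared out with another gene, and the part of this in the level of SOX7 was not tested. SOX7 overlaps the antisense gene SOX7-AS1 in RefSeq, which was not found among the listed genes.

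SOX9, the SOXE member and a master regulator of cartilage, made its largest step at day 3. It had 15.7, 23.9, 93.9 and 84.3 CPM at days 0, 2, 3 and 4. Days 3 and 4 lay together and far above days 0 and 2. SOX9 was 1.52-fold higher at day 2 than at day 0 (1.14 to 2.04), 3.93-fold higher at day 3 than at day 2 (3.21 to 4.83), and its day 4 to day 3 ratio was 0.898 (0.789 to 1.02). From day 0 to day 4 the fold was 5.37 (4.23 to 6.88). The step at day 3 came to 1.93 on the log2(CPM + 1) scale, just under the threshold of 2 used for calls.

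SOXC genes were high on all 4 days and differed little. SOX4 had 311, 220, 255 and 217 CPM, and SOX11 had 119, 151, 167 and 161 CPM. SOX4 was highest at day 0 and SOX11 lowest at day 0. SOX4 was 1.42-fold lower at day 2 than at day 0 (1.31 to 1.53), and SOX11 was 1.27-fold higher (1.14 to 1.41). Both exceed counting error. Per length, SOX4 stood at 4.65 times SOX11 at day 0 (4.23 to 5.11) and at 2.59, 2.72 and 2.40 times at days 2, 3 and 4. The day 4 to day 2 ratios, 0.989 for SOX4 (0.911 to 1.07) and 1.07 for SOX11 (0.967 to 1.18), both include 1. SOX15, the SOXG member, which has roles in muscle progenitors in mouse, had 6.98, 6.28, 7.34 and 6.36 CPM at days 0, 2, 3 and 4. Each of its ratios between days had an interval that includes 1, and the widest, day 3 to day 2, ran from 0.712 to 1.93. SOX15 overlaps MPDU1, a listed gene, and their reads cannot be told apart where they overlap.

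A gene was called where log2(CPM + 1) differed by at least 2, a 4-fold difference on that scale, with at least 1 CPM in either library. Between day 2 and day 0, 1 of 9 members was called higher (SOX17) and 2 were called lower (SOX2 and SOX3), while 4.63% of all genes were called higher and 1.93% lower. Between day 3 and day 2, 7 members had at least 1 CPM, and SOX7 was called higher, against 1.32% of all genes higher and 0.406% lower. Between day 4 and day 3, 8 members had at least 1 CPM and none was called in either direction, and of all genes 0.377% were called higher and 0.228% lower. Between day 4 and day 2, SOX7 was called higher of 8 members with at least 1 CPM, against 2.32% higher and 1.4% lower of all genes. Between day 4 and day 0, SOX7, SOX9, SOX17 and SOX18 were called higher and SOX2 and SOX3 lower of 9, against 6.27% higher and 3.44% lower of all genes. Several members reached 1 CPM in 1 library of the pair alone, the one where they are high, so that their direction was fixed by the filter. These were SOX2, SOX3, SOX17 and SOX18 between day 2 and day 0, and SOX3, SOX17 and SOX18 between day 4 and day 0. SOX2, not called there, also passed through day 4 alone between day 4 and day 3 and between day 4 and day 2. The call of SOX18 and both calls of SOX3 were lost with a pseudocount of 5, and the call of SOX18 also on FPKM and with a minimum of 5 CPM. The members' median log2 differences in these 5 comparisons, in the order given, were 0.34, 0.22, -0.11, 0.22 and 0.43, and the medians of all genes lay between -0.01 and 0.03. Members were chosen with earlier results in view, so these shares describe the 9 genes and are not a test of the family.

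**Figure D2:**
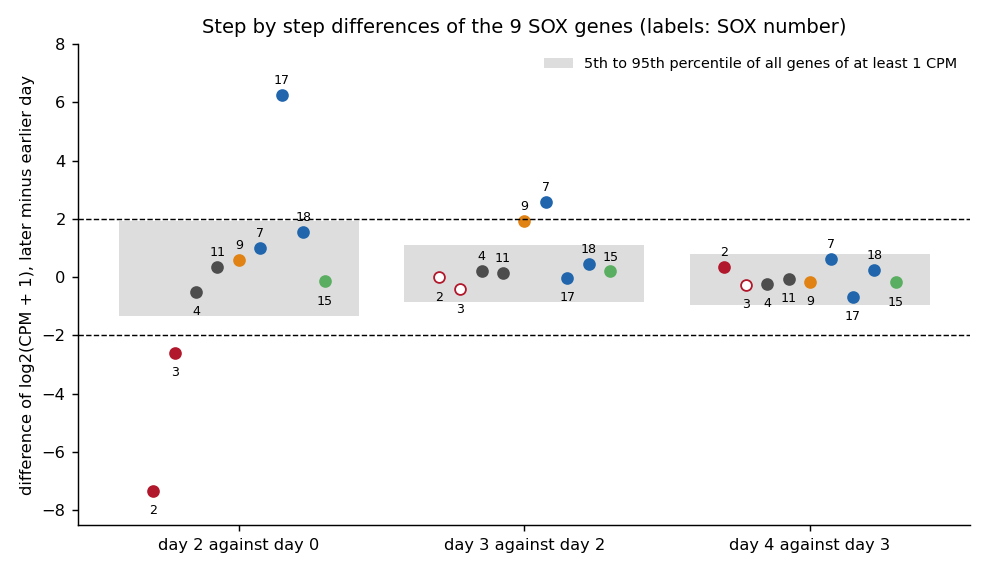
Difference of log2(CPM + 1), later minus earlier day (vertical axis), of the 9 SOX genes in the 3 successive steps (horizontal axis), labelled by SOX number, with colours for the groups (red SOXB1, dark grey SOXC, orange SOXE, blue SOXF, green SOXG). Open points had under 1 CPM in both libraries, grey bands span the middle 90% of all genes of at least 1 CPM, and dashed lines mark the threshold of 2. SOX2 lies at -7.33 and SOX17 at 6.26 in the first step, SOX7 at 2.58 in the second, and no member passes a dashed line in the third.

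Per length, the make-up of the 9 genes changed between day 0 and day 2, and again after day 2 within SOXF and for SOX9. Other SOX genes are not in these sums and orders. Among them SOX12, also a SOXC gene, and SOX13 had 18.3 and 30.6 FPKM at day 0 and 22.3 and 11.0 at day 4. The deposited FPKM of the 9 genes summed to 208 at day 0 and to 112, 151 and 133 at days 2, 3 and 4. SOXB1 held 57.7% of the sum at day 0 and 0.527, 0.265 and 0.383% later. SOXF held 0.398% at day 0 and 36.3, 34.2 and 33.5% later. SOXC held 37.5, 53.9, 46.5 and 46.7% at days 0, 2, 3 and 4, and SOX9 held 1.94, 5.27, 15.5 and 15.9%. The share of SOXC was larger at day 2 than at day 0 although its summed FPKM was smaller, at 60.4 against 78.2. Within SOXF, SOX17 held 33.8, 25.0 and 17.7% of the sum at days 2, 3 and 4, while SOX7 held 1.54, 7.97 and 14.1%. At day 0 the order of FPKM began with SOX2 (116), SOX4 (64.4) and SOX11 (13.8), whose counting intervals were apart. SOX15, SOX3 and SOX9 followed at 5.19, 4.22 and 4.04 FPKM, and neighbours among these 3 overlapped. At day 2 it began with SOX4 (43.6) and SOX17 (37.8), which overlapped, then SOX11 (16.8) and SOX9 (5.90). SOX2 and SOX3 were then last at 0.31 and 0.28 FPKM. At day 3 SOX4 (51.4), SOX17 (37.8), SOX9 (23.5), SOX11 (18.9) and SOX7 (12.1) stood apart from one another. At day 4 SOX4 led at 44.0 FPKM. Behind it SOX17 (23.6), SOX9 (21.2), SOX7 (18.8) and SOX11 (18.2) formed a chain in which each gene overlapped the next.

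**Figure D3:**
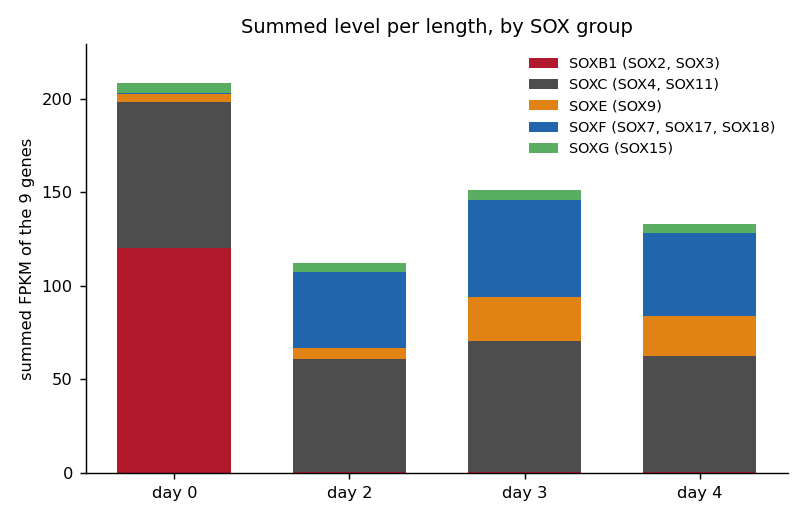
Summed FPKM of the 9 SOX genes (vertical axis from 0) by day, 1 library each, divided by SOX group. The SOXB1 segment holds 57.7% at day 0 and under 1% later, and the SOXF segment 33.5 to 36.3% at days 2 to 4.

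The other 10 autosomal SOX genes gave a second view of the family. Of these, 9 were listed in some library and 6 reached 1 CPM in some library. SOX1, a SOXB1 gene of neural progenitors, was not found among the listed genes. SOX12, the third SOXC gene, had 84.0, 69.2, 93.7 and 105 CPM at days 0, 2, 3 and 4. Its counting intervals at day 3 (85.6 to 102) and day 4 (96.1 to 113) overlapped. SOX13, a SOXD gene, was highest at day 0, with 123, 57.7, 69.8 and 45.3 CPM, and was 2.71-fold lower at day 4 than at day 0 (2.34 to 3.15). The other SOXD genes, SOX5 and SOX6, which work with SOX9 in cartilage, had 0 counts at day 0. SOX5 had 0, 2.75, 7.54 and 4.91 CPM and was 8.43-fold higher at day 4, set against the floor at day 0 and without counting error. SOX6 had 0, 0.196, 4.25 and 5.27 CPM and by the same measure was 9.06-fold higher. SOX6 had 1 count at day 2 and 22 at day 3, the same step in which SOX9 and SOX7 rose. The SOXE genes differed from one another: SOX8 dipped, with 7.18, 0.981, 1.16 and 3.45 CPM, and SOX10 stayed low at 2.13, 3.14, 2.71 and 1.27 CPM. SOX8 was 7.32-fold lower at day 2 than at day 0 (2.87 to 23.8), and SOX10 overlaps POLR2F, a listed gene. SOX14, SOX21 and SOX30 had 0 to 2 counts in every library.

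**Figure D4:**
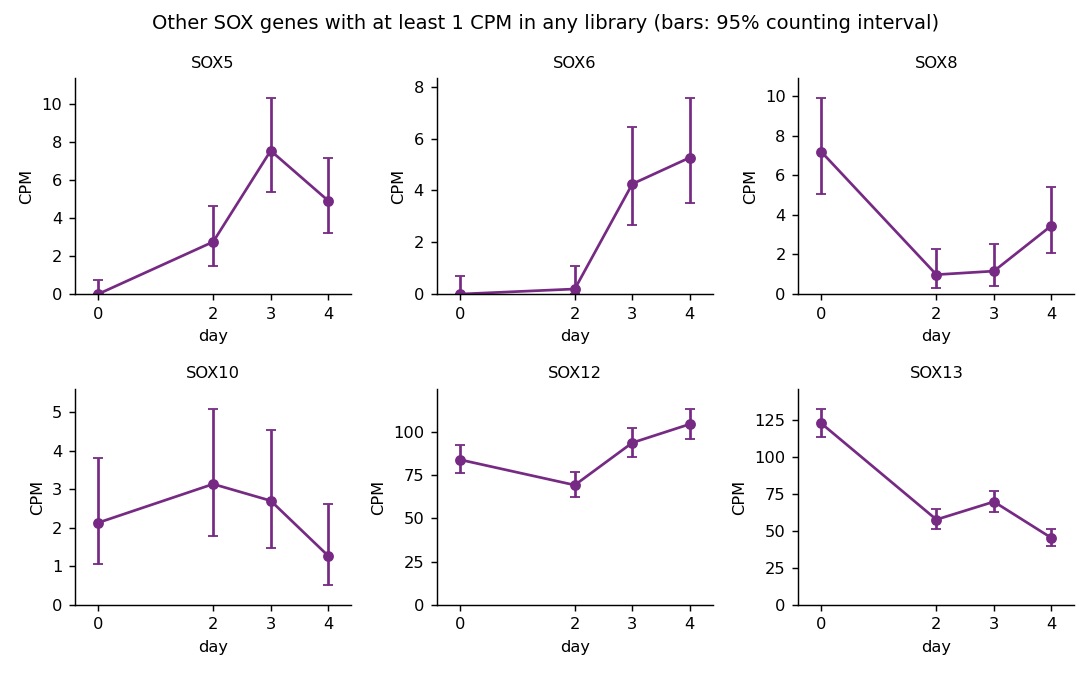
Level in CPM (vertical axes from 0, a separate scale per gene) by day (horizontal axes) of the 6 other SOX genes with at least 1 CPM in any library, 1 library per day, with bars for the 95% counting interval. SOX5 and SOX6 start at 0, SOX13 is highest at day 0 at 123 CPM, and SOX8 lies at 0.981 CPM at day 2.

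Partners, targets or cell type genes linked to SOXB1, SOXE and SOXF were set beside the members. No such list was drawn up for SOXC or SOXG. Among 10 SOX2 partners and pluripotency genes, 9 reached 1 CPM in the comparison of day 2 with day 0. Of the 9, 2 were called lower and none higher, against 1.93% lower and 4.63% higher of all genes. The median log2 difference of the 9 was -1.18, against -0.00 over all genes. The 2 were PRDM14, at 2.16 CPM at day 2 against 86.9 at day 0, and DPPA4, at 230 against 980 CPM. POU5F1, the DNA-binding partner of SOX2, was 2.33-fold lower (2.21 to 2.45) and TDGF1, a NODAL coreceptor, 1.47-fold lower (1.41 to 1.53). By day 4, 5 of the 9 were called lower than at day 0, against 3.44% of all genes, and the median was -2.18. POU5F1 was then 7.43-fold lower (6.86 to 8.05) and NANOG 4.63-fold lower (4.01 to 5.36). POU5F1 measured 126 CPM at day 4, when SOX2 measured 1.27 CPM. Reads of POU5F1 and NANOG are uncertain, since both have near-identical pseudogene copies.

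SOX2 and SOX3 are also genes of neural progenitors, and 11 neuroectoderm genes were read beside them. In the comparison of day 2 with day 0, 6 reached 1 CPM and none was called, against 4.63% higher and 1.93% lower of all genes. The median of the 6 was 0.34. That median turned to -0.22 with a minimum of 5 CPM and to -0.28 on FPKM. In that of day 4 with day 0, ZIC2 and DCX were called lower of 6, against 3.44% of all genes. At a 2-fold difference on the log2(CPM + 1) scale, 1 of the 6 was higher and 2 were lower. NES, named after its values were seen, was the higher gene, with 348, 769, 676 and 712 CPM at days 0, 2, 3 and 4. Between day 2 and day 0, 2 of the 6 were higher by that measure and none was lower. PAX6 had 1.75, 4.12, 1.93 and 1.27 CPM at days 0, 2, 3 and 4.

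Of 11 definitive endoderm genes, 10 reached 1 CPM in the comparison of day 2 with day 0. Of the 10, 7 were called higher and none lower, against 4.63% higher and 1.93% lower of all genes. Most of the 7, FOXA2 and GATA6 among them, had under 1 CPM at day 0, so the filter fixed their direction. The median of the 10 was 3.53. That median was 2.07 with a pseudocount of 5 and 4.95 with 0.1. SOX17 rose in the same step. The endoderm genes differed among themselves by day 4. CER1, a secreted NODAL antagonist, was 1398-fold lower at day 4 than at day 2 (736 to 3058), whereas FOXA2, a forkhead factor of endoderm, was 2.06-fold higher at day 4 than at day 2 (1.37 to 3.14). GATA6 was 2.39-fold lower (2.14 to 2.69), nearer to the 1.64-fold fall of SOX17 (1.41 to 1.90). Of 11 in that comparison, 3 were called higher and 2 lower, against 2.32% higher and 1.4% lower of all genes. Some of these called genes were under 1 CPM in the library where they are low, which fixed their direction.

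Of 18 endothelial genes named with SOXF, 15 reached 1 CPM in the comparison of day 4 with day 2. Of the 15, 8 were called higher and none lower, against 2.32% higher and 1.4% lower of all genes. Among the called genes, CDH5 and ERG had under 1 CPM at day 2, so the filter fixed their direction. The median of the 15 was 2.03, against 0.02 over all genes. ERG and FLI1, ETS factors of endothelium, were 90.8-fold (30.8 to 443) and 24.6-fold higher (16.5 to 38.3). CDH5 was 425-fold higher (75.9 to 16833) and ESAM, a junction protein, 9.96-fold higher (5.96 to 17.8). SOX7 was 10.7-fold higher between the same days (7.29 to 16.2). SOX18, at 1.95-fold (0.877 to 4.63), was not beyond counting error. The arterial and lymphatic genes of this list differed among themselves. EFNB2, an arterial ephrin ligand, had 38.4, 78.1, 248 and 225 CPM at days 0, 2, 3 and 4 and was called higher at day 4 against day 0. FLT4, a lymphatic VEGF receptor, had 8.92, 3.92, 6.18 and 16.9 CPM and was 4.31-fold higher at day 4 than at day 2 (2.64 to 7.38). PROX1, a lymphatic homeobox factor, had 1.94, 1.77, 8.50 and 9.45 CPM and was 5.35-fold higher at day 4 than at day 2 (2.61 to 12.4). NOTCH1 had 116, 66.9, 66.9 and 72.9 CPM and its day 4 to day 2 ratio of 1.09 (0.941 to 1.26) includes 1. DLL4, a NOTCH ligand, had 0, 0, 2 and 4 counts, and the junction gene CLDN5 had 1 count at day 4 and none before. These 6 were chosen after their values were seen. Haemogenic regulators were called higher in 6 of 8 between day 4 and day 2, against 2.32% of all genes. The median of the 8 was 2.55 (3.91 with a pseudocount of 0.1), and TAL1 had 86.3 CPM at day 4 against 0 at day 2. TAL1 and others of the 6 had under 1 CPM at day 2, so the filter fixed their direction. TAL1 does not stand for the whole list. Between day 2 and day 0, 4 of the 8 reached 1 CPM and 3 were already called higher, against 4.63% of all genes. Those 3 had under 1 CPM at day 0, so the filter fixed their direction.

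**Figure D5:**
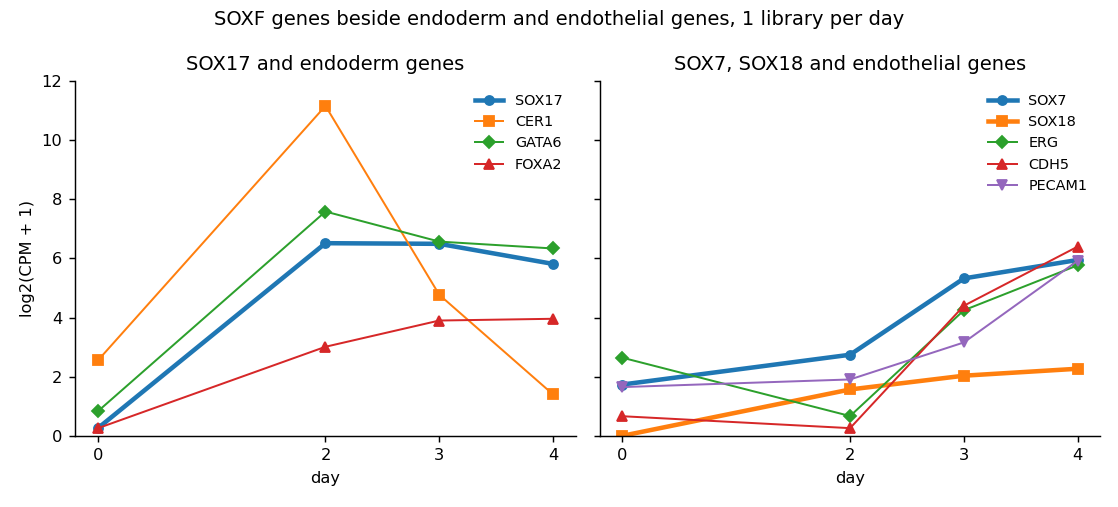
Level on the log2(CPM + 1) scale (vertical axis) by day (horizontal axis) of SOX17 with 3 endoderm genes (left) and of SOX7 and SOX18 with 3 endothelial genes (right), 1 library per day. CER1 and SOX17 are both high at day 2 and CER1 then falls to 1.64 CPM at day 4, while SOX7, ERG, CDH5 and PECAM1 all lie between 53.4 and 83.4 CPM at day 4.

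Of 10 cartilage genes downstream of SOX9, 8 reached 1 CPM in the comparison of day 4 with day 0. Of the 8, 5 were called higher and 1 lower, against 6.27% higher and 3.44% lower of all genes. The median of the 8 was 2.47. COL2A1, the main cartilage collagen and a direct SOX9 target, had 8.53, 3.53, 46.8 and 65.4 CPM at days 0, 2, 3 and 4. HAPLN1, a link protein of hyaluronan matrix, had 10.1, 433, 1802 and 3304 CPM, with a large step already at day 2. COL9A2 had 1.75, 124, 160 and 173 CPM. COL9A1 was called lower, at 1.27 CPM at day 4 against 16.3 at day 0. ACAN, named after its values were seen, had 0.582, 0.981, 2.71 and 4.54 CPM.

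For the 6 members with at least 10 CPM in any library, the genes with the closest profile were found among 11557 others, by the Euclidean distance between log2(CPM + 1) values centred on their mean over the 4 libraries. USP44, a deubiquitinase, was closest to SOX2 at a distance of 1.40, with 319, 5.49, 4.25 and 2.36 CPM, followed by CAMKV and LMO3. MSX2, a homeobox factor, was closest to SOX17 at 0.0829, with 1.16, 174, 164 and 108 CPM, followed by ERBB4 and DLC1. STRA6, a retinol transporter, was closest to SOX9 at 0.0732, with 9.31, 13.5, 57.2 and 49.1 CPM, followed by SEMA3D and KCNQ5. TPPP3 was closest to SOX7 at 0.210, followed by LTBP2 and CBLN2. The flat profiles of SOX4 and SOX11 lay nearest to ZNF317 (0.0184) and MOGS (0.0369), followed by ALKBH1 and USP45 for SOX4 and by ZNF335 and NBR1 for SOX11. The 4 points share 1 library each with every other gene, and likeness over 4 points is a description. With a pseudocount of 5, 1 of 3 genes stayed the same for SOX2, SOX4, SOX9, SOX11 and SOX17, and 0 of 3 for SOX7.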

How the data were processed

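RNA of 4 libraries, 1 per day, was sequenced after Illumina TruSeq preparation from 2 ug of total RNA, per the labels' protocols. BWA, Bowtie, RSEM and hg19 are named, per the submitters' processing notes; versions and roles are not given in those sources, and the series' design text also names TopHat with Cufflinks. The authors deposited expected counts per gene, estimated from the reads and not normalized, per the file headers. These were rounded to whole numbers, with 0 for any gene a file does not list. Of the 19390 gene IDs, 19273 matched the RefSeq table of GRCh38.p14 and 117 did not. CPM used totals scaled by TMM factors of 0.981 to 1.02 (edgeR 4.0.16, R 4.3.3). The deposited FPKM, scaled by length and library size by the authors, per the file headers, served for levels between genes and for 1 alternative.

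Levels have exact Poisson intervals and ratios have exact conditional binomial intervals, at 95% and for counting error only. For a gene at 0, folds are set against 3 counts in the library concerned and leave out the counting error of the other library. Python 3.11.15, scipy 1.17.1 and matplotlib 3.10.9 were used, and the rule of size and the ratio intervals were tested on simulated counts. The members, gene lists and rules were chosen with earlier results of these data known. Named genes were the 9 members, other SOX genes of at least 1 CPM, up to 4 genes of each list by size of difference, fixed markers and the 3 closest profiles per member; 1 gene that this rule names is not reported here. The level of SRY was not analysed here. No coordinates of genes are given because the files use hg19; the 3 promoters are in GRCh38.p14. DESeq2 1.42.0 gave the size factors of another alternative.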

Additional observations from a re-analysis of the deposited data

How the results depend on the processing

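The calls of SOX2, SOX7, SOX9 and SOX17 kept their direction and their side of the threshold under pseudocounts of 0.1 and 5, median-of-ratios factors, unscaled totals, no filter, a minimum of 5 CPM and the deposited FPKM. With a pseudocount of 0.1, 2 members were called higher at day 2 against day 0, since SOX18 joined at a log2 difference of 4.37. With a pseudocount of 5, 1 member was called lower at day 2 and 1 at day 4 against day 0, since SOX3 was lost at -1.28 and -1.44. SOX18 at day 4 against day 0 was lost at 0.82 with a pseudocount of 5, at 1.70 on FPKM, and at a minimum of 5 CPM, which it does not reach. SOX18 had at most 21 and SOX3 at most 44 counts. The place of SOX2 among all decreases was 1 to 3 at day 2 and 1 to 5 at day 4 against day 0, and that of SOX17 among increases 10 to 44 and 47 to 113, in settings added after the data were seen. The order of the members by level was the same with counts divided by length. Counts of all genes at least 4-fold higher and lower depended on the pseudocount: 1087 and 676 with 0.1 and 362 and 112 with 5, against 712 and 297, for day 2 against day 0; 484 and 227 with 0.1 and 55 and 20 with 5, against 202 and 62, for day 3 against day 2; 243 and 228 with 0.1 and 11 and 7 with 5, against 58 and 35, for day 4 against day 3; 704 and 470 with 0.1 and 142 and 82 with 5, against 357 and 215, for day 4 against day 2; 1492 and 930 with 0.1 and 504 and 223 with 5, against 981 and 538, for day 4 against day 0. On FPKM, 83 genes were lower at day 4 against day 3. Under all alternatives, 317 list medians moved by at most 0.5 and 33 by more, the endoderm, neural crest and haemogenic lists among them. No paired analysis was possible because each day has 1 library.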

Other observations

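The TCF and LEF factors, which also bind DNA through an HMG box and act at the end of the WNT pathway, differed in direction over the same days. LEF1 had 1.16, 55.1, 125 and 141 CPM at days 0, 2, 3 and 4 and was 121-fold higher at day 4 than at day 0 (55.5 to 332). TCF7L1, a repressor in pluripotent cells, had 196, 27.5, 54.9 and 70.7 CPM and was 7.13-fold lower at day 2 than at day 0 (5.97 to 8.57), the step in which SOX2 fell, and was higher again by day 4. TCF7 peaked at day 2, with 11.1, 64.5, 41.0 and 24.0 CPM, and TCF7L2 moved between 48.9 and 88.0 CPM. Between day 2 and day 0, 2 of these 4 factors were called higher and 1 lower, against 4.63% higher and 1.93% lower of all genes.

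Neural crest genes, among which SOX9 and SOX10 act, went both ways. Of 9, 7 reached 1 CPM in the comparison of day 2 with day 0. Of the 7, 4 were called higher and 1 lower, against 4.63% higher and 1.93% lower of all genes. Most of the called genes were under 1 CPM in 1 of these libraries, which fixed their direction. MSX1 and TFAP2A at day 0 and FOXD3 at day 2 were among them. The median of the 7 was 2.15. That median was 1.12 over all 9 with no filter, 1.08 with a pseudocount of 5 and 3.40 with 0.1. MSX1 had 105 CPM at day 4 against 0.388 at day 0, SNAI2 had 132 against 3.68, and TFAP2A had 35.3 against 0.388. FOXD3, which also serves pluripotent cells, had 14.5 CPM at day 0 and 0 counts at days 2, 3 and 4. MSX1, SNAI2 and TFAP2A are also known in mesoderm or amnion, and SOX10 stayed at or below 3.14 CPM.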
